A study of Mus musculus with 18 samples.

Results

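The 10 genes described here, of ferroptosis and of the NRF2 antioxidant response, were followed across 18 RNA-seq libraries labelled mouse thalamus. They were taken by symbol from the deposited table, where 10 of 10 symbols each matched a row among 50559 genes, and 10 of 10 passed the filter on low counts. Ferroptosis is an iron-dependent form of cell death in which lipid peroxides accumulate in membranes. Acsl4 loads polyunsaturated fatty acids into the phospholipids that become peroxidised, Slc7a11 imports the cystine from which glutathione is made, Gpx4 uses glutathione to reduce the lipid peroxides, and Aifm2 (FSP1) keeps ubiquinone reduced as a second defence. Nfe2l2 encodes NRF2, a transcription factor held at low protein levels by KEAP1 until oxidants or electrophiles release it. Its textbook targets include Nqo1, a quinone reductase, Gclc and Gclm, the catalytic and modifier subunits of the first enzyme of glutathione synthesis, Txnrd1, the cytosolic thioredoxin reductase, and Srxn1, which restores over-oxidised peroxiredoxins. Iron and haem from blood make both systems of interest after brain haemorrhage. NRF2 is regulated largely at the protein level, which RNA counts do not measure.

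The samples came from WT mice in 3 groups of 6. Control libraries were labelled with saline, model libraries with Coll IV, and intervene libraries with Coll IV and remodelin, an inhibitor of the acetyltransferase NAT10. The series asks how remodelin acts on inflammation-related genes in thalamic haemorrhage. The labels do not expand Coll IV, give no time, age, sex or batch, and do not say whether the samples come from separate animals. The p-values therefore reflect the spread among these samples, which may be technical. Totals ran from 28481225 to 118461420 counts per library, the highest in control 1, and the 10 genes held from 152 counts (Nqo1 in 1 library) to 64283 (Gpx4 in 1 library).

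Markers of brain region went against the thalamus label in some libraries. By these markers, control and model libraries parted by replicate number, 1 to 3 against 4 to 6. The labels do not mention this division, which was seen in the data. Intervene libraries of the sets overlapped in both marker sums given here. The summed level of 12 thalamic neuron markers was 785 to 946 CPM (counts scaled to a common library size) in control 1 to 3 and 137 to 155 in control 4 to 6. It was 560 to 961 and 202 to 370 CPM in model, and 677 to 709.9 and 531 to 725 in intervene. The summed level of 10 cortical and hippocampal neuron markers was 214 to 1290.2 CPM in control 1 to 3 against 2711 to 2951 in control 4 to 6, with 890 to 1696 against 1957 to 2253 in model and 611 to 1419.6 against 1011 to 1895 in intervene. Each comparison below is therefore given over all libraries and within each set of numbers. Where libraries of different groups or sets are said not to overlap, the share of all genes without overlap was not counted.

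Length-corrected levels ordered the 10 genes over a wide range, and the order was led by Gpx4 (plot of deposited FPKM by gene). On the FPKM scale, over 18 libraries, Gpx4 averaged 174 ± 20.3 (SD, n = 18), from 135 to 208, and lay above every other member in every library. Srxn1 followed at 16.5 ± 1.82 FPKM, from 13.4 to 20.7, and did not overlap its neighbours either. Gclm at 6.78 ± 0.654, Txnrd1 at 6.54 ± 0.806, Gclc at 6.13 ± 1.09 and Acsl4 at 5.36 ± 0.914 FPKM were neighbours whose ranges overlapped. Nfe2l2 averaged 3.01 ± 0.473 FPKM, from 2.08 to 4.05, and its range met the lower end of Acsl4, whose lowest library was at 3.38. The 3 lowest genes were Slc7a11 at 1.27 ± 0.306, Nqo1 at 1.24 ± 0.313 and Aifm2 at 0.681 ± 0.149 FPKM, again with overlapping ranges. The 2 subunits of glutamate-cysteine ligase thus stood at like levels, while the 2 ferroptosis defences Gpx4 and Aifm2 lay at opposite ends. FPKM depends on the gene length the authors used, which the files give implicitly as 2930 bases for Gpx4 and 18762 for Slc7a11.

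**Figure D1:**
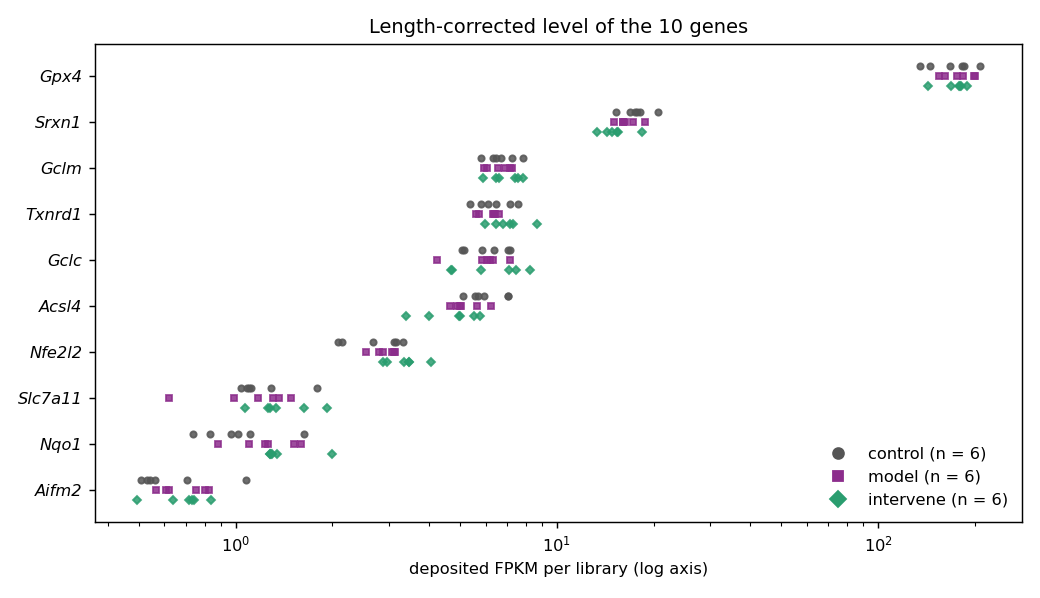
Deposited FPKM of the 10 genes on a log axis, 1 point per library, with control, model and intervene libraries (n = 6 each) in separate rows of points. Gpx4 sits from 135 to 208 FPKM and Srxn1 from 13.4 to 20.7, while Slc7a11, Nqo1 and Aifm2 reach 2.001 FPKM at most.

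Between single libraries the genes varied unequally. The highest library was 1.45 times the lowest for Gclm and 1.49 times for Srxn1. Txnrd1 and Gpx4 spanned 1.55-fold and 1.52-fold. Slc7a11 and Nqo1 spanned the most, 2.89-fold and 2.53-fold.

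The sequences just around the annotated start sites are shown for the 4 members that hold an antioxidant response element core there, the sequence NRF2 binds with a small MAF partner. Holding it did not part the genes that rose from the others in the comparison with most calls below (intervene against control in libraries 4 to 6): Gclm, Txnrd1 and Nfe2l2 hold it and rose, Srxn1 holds it and had a log2 difference of -0.19 that was not called, and Nqo1 rose without it. The core searched was TGACNNNGC on both strands, in RefSeq windows from 250 bases before to 50 after each start (GRCm38.p6). Windows were found for 9 of 10 members, all but Gclc, and 4 of these 9 hold a match, in 4 of their 14 windows. Over all 32851 windows of this length 12.4% hold one, and 3781 of 27025 genes have it in any window. Capitals mark the match, which on the antisense strand reads GCNNNGTCA; each line runs 5′ to 3′ on the strand of the gene.
Gclm: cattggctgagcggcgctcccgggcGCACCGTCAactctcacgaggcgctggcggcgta
Txnrd1: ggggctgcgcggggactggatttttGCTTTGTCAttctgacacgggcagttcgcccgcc
Srxn1: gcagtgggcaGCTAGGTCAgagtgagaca
Nfe2l2: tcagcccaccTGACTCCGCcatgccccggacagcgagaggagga
The Gclm stretch is chr3:122245398-122245456 on the plus strand, with the match 134 bases upstream of the start. The Txnrd1 stretch is chr10:82859089-82859147 on the plus strand, 92 bases upstream of 1 of its 3 annotated starts. The Srxn1 stretch is chr2:152105542-152105570 on the plus strand, with the match 29 bases into the transcript. The Nfe2l2 stretch is chr2:75704870-75704913 on the minus strand, 240 bases upstream. The windows of Nqo1, Acsl4, Gpx4, Slc7a11 and Aifm2 do not hold these letters, which says nothing of elements elsewhere or of binding.

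Over all 18 libraries none of the 10 genes passed the test in any of the 3 comparisons between groups. Levels overlapped between any 2 groups for each gene (plot of CPM by group and replicate set). By edgeR's quasi-likelihood test at an adjusted p under 0.05, 0 of 10 members and 0% of 18452 genes were called in each of the 3 comparisons. In the order model against control, intervene against model, intervene against control, at an unadjusted p under 0.05 the members numbered 0, 1 and 4, and all genes 310, 531 and 1551. The other tests run on the same libraries, DESeq2 and limma among them, also called 0 members, and from 0 to 2, 0 to 2 and 0 to 78 of all genes.

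The lipid peroxidation genes showed this spread. Acsl4 ran from 54.9 to 77.0 CPM in control (median 66.0), 53.0 to 66.1 in model (median 56.7) and 41.9 to 61.5 in intervene (median 56.0). The intervene libraries overlapped control, with a log2 difference of -0.31 ± 0.10 (SE) and an adjusted p of 0.479 by edgeR. Gpx4 ran from 389.9 to 572 CPM in control, 436 to 592 in model and 440.1 to 592 in intervene, so its groups covered almost the same range. Slc7a11 ran from 19.996 to 31.6 CPM in control, 11.97 to 26.7 in model and 22.4 to 34.7 in intervene, again overlapping. Intervene against model gave Slc7a11 a log2 difference of 0.31 ± 0.17 with an adjusted p of 0.988. Aifm2 ran from 5.60 to 11.4 CPM in control, 6.07 to 9.29 in model and 6.19 to 9.26 in intervene.

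Among the NRF2 genes, Nfe2l2 itself ran from 15.5 to 24.7 CPM in control (median 21.8), 20.1 to 24.0 in model (median 22.5) and 21.7 to 32.4 in intervene (median 25.3). Its intervene libraries reached higher than either other group but overlapped both, with a log2 difference from control of 0.34 ± 0.12 and an adjusted p of 0.521. Nqo1 ran from 5.05 to 10.3 CPM in control, 6.09 to 11.0 in model and 8.45 to 12.8 in intervene. Its difference between intervene and control was 0.48 ± 0.17 on the log2 scale, the largest of the 10 genes over all libraries, with an adjusted p of 0.519. Txnrd1 ran from 44.2 to 56.9 CPM in control, 46.5 to 52.9 in model and 50.1 to 68.6 in intervene, with log2 differences of 0.22 ± 0.08 from model and 0.18 ± 0.08 from control. For Gclm, Gclc and Srxn1 the 3 comparisons gave log2 differences from -0.17 (Srxn1, intervene against control) to 0.13 (Gclc, intervene against model). The median log2 difference of the 10 genes was -0.01, 0.11 and 0.12 in model against control, intervene against model and intervene against control, against 0.00 for all genes in each.

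**Figure D2:**
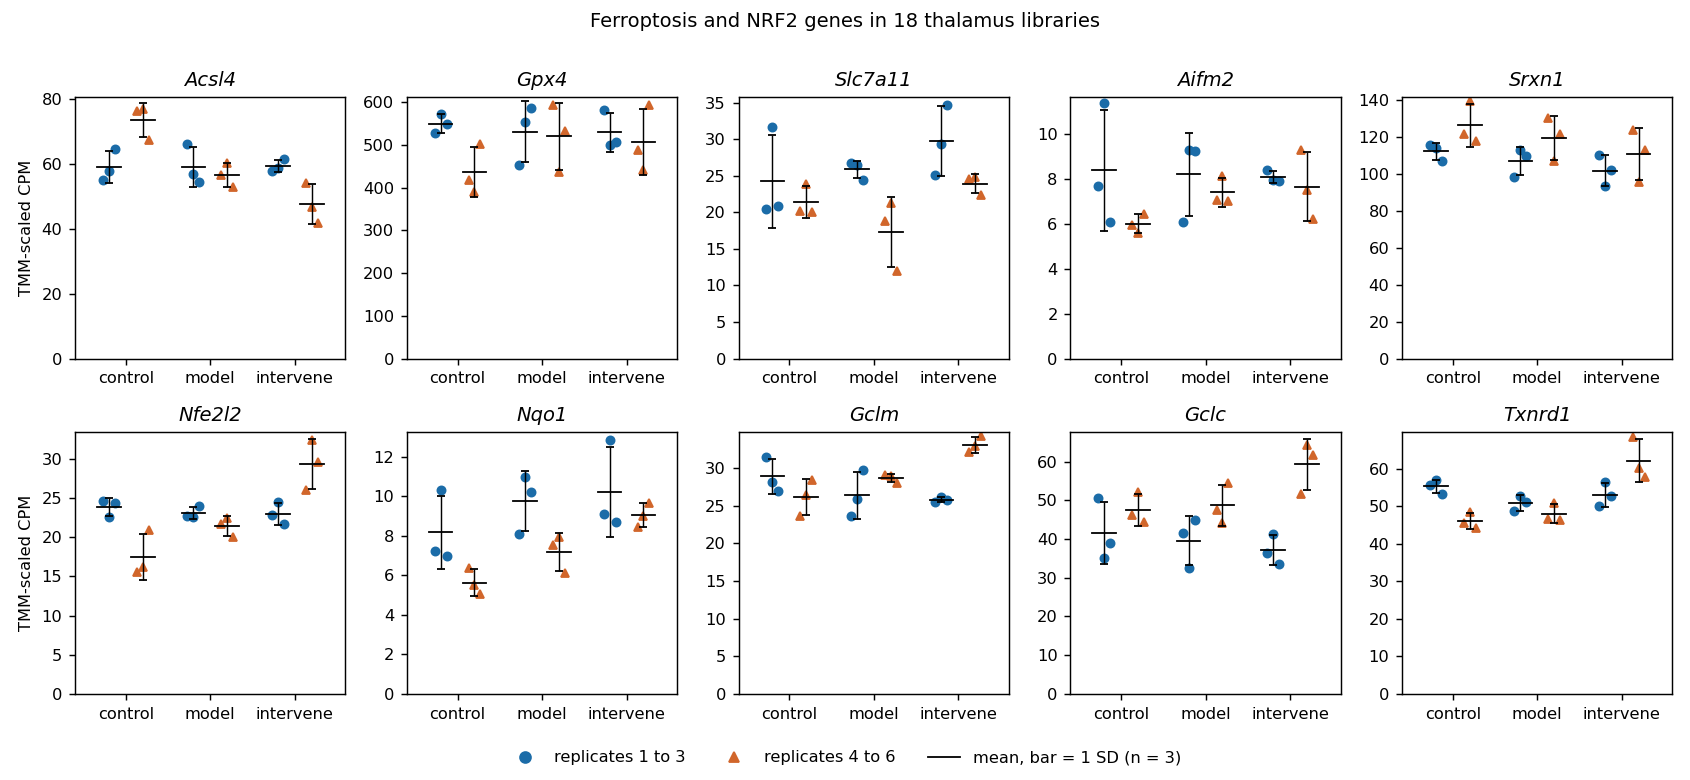
TMM-scaled CPM of each gene in every library, by group, with circles for replicates 1 to 3 and triangles for replicates 4 to 6; the line is the mean of 3 libraries and the bar 1 SD. In the triangles Nfe2l2 and Txnrd1 are highest in intervene and Acsl4 is highest in control, while the circles of these genes lie at about the same level in the 3 groups.

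Within libraries 1 to 3, Acsl4, Nfe2l2 and Txnrd1 were nearly level across the groups. Acsl4 measured 54.9, 57.8 and 64.6 CPM in control, 66.1, 56.8 and 54.4 in model, and 57.7, 58.8 and 61.5 in intervene. Nfe2l2 measured 24.7, 22.6 and 24.4 CPM in control, 22.7, 22.6 and 24.0 in model, and 22.9, 24.5 and 21.7 in intervene. Neither gene parted any 2 groups. Txnrd1 measured 55.7, 56.9 and 53.4 CPM in control, 48.7, 52.9 and 51.1 in model, and 50.1, 56.4 and 52.7 in intervene. Its model libraries lay just under control without overlap, at a log2 difference of -0.12 ± 0.08 and an adjusted p of 0.893. Gclm measured 31.5, 28.2 and 26.9 CPM in control against 25.5, 26.1 and 25.7 in intervene. These do not overlap, but the log2 difference of -0.16 ± 0.10 had an adjusted p of 0.661 by edgeR. How many of all genes were without overlap was not counted. In this set 0 of 10 members were called in each of the 3 comparisons, against 0% of all genes, and 0 at an unadjusted p under 0.05, where all genes numbered 1075, 700 and 1579 for model against control, intervene against model and intervene against control. DESeq2 and the other tests also called 0 members. The median log2 difference of the members was -0.05, -0.01 and -0.05.

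Within libraries 4 to 6, no member was called between model and control. Acsl4 measured 76.3, 77.0 and 67.4 CPM in control and 56.6, 60.3 and 53.0 in model. Each model library lay under each control library, and the log2 difference was -0.38 ± 0.10 with an adjusted p of 0.250 by edgeR. The unadjusted p of 0.00215 was close to the 0.00214 of Nqo1 in intervene against control, a call given below. The adjustment depends on all genes of a comparison. Nfe2l2 measured 15.5, 16.2 and 20.9 CPM in control and 21.7, 22.5 and 20.1 in model, higher in 8 of 9 pairs of libraries, at 0.29 ± 0.11 with an adjusted p of 0.403. Aifm2 was also without overlap, at 5.96, 5.60 and 6.44 CPM in control and 7.06, 8.12 and 7.00 in model, with a log2 difference of 0.30 ± 0.21 and an adjusted p of 0.661. How many of all genes were without overlap was not counted here either. Called were 0 of 10 members and 0% of all genes, with 2 members and 1876 genes at an unadjusted p under 0.05. DESeq2 and the other alternatives called 0 members and 0 to 210 of all genes.

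In intervene against model within libraries 4 to 6, the RNAs of NRF2 and of thioredoxin reductase rose. Nfe2l2 measured 26.0, 32.4 and 29.6 CPM in intervene against the 21.7, 22.5 and 20.1 of model. All 3 intervene libraries lay above all 3 model libraries, a 1.37-fold difference in means (29.4 ± 3.20 against 21.4 ± 1.25 CPM, SD, n = 3). The log2 difference was 0.45 ± 0.11, with an adjusted p of 0.0286 by edgeR. Txnrd1 measured 68.6, 60.2 and 57.9 CPM in intervene and 46.6, 50.9 and 46.5 in model, again without overlap. It rose 1.296-fold, from 48.0 ± 2.52 to 62.2 ± 5.63 CPM (SD, n = 3), with a log2 difference of 0.37 ± 0.08 and an adjusted p of 0.0172. These 2 were the only members called of 10, both higher, where 5.71% of all genes were called, 3.66% higher and 2.05% lower. With library totals in place of TMM scaling, 401 of all genes were called higher and 439 lower in place of 675 and 378, and neither member was called. Neither call held without model 4 or model 6 (Nfe2l2 adjusted p 0.0916 and 0.0952, Txnrd1 0.0846 and 0.0552). Nfe2l2 was also lost without model 5, intervene 5 or intervene 6, at 0.0587, 0.13 and 0.0631.

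The other members did not pass in intervene against model. For some of them the libraries of the groups did not overlap, but the share of all genes without overlap was not counted. At an unadjusted p under 0.05 by edgeR there were 5 of 10 members, the 2 called included, and 23.3% of all genes. Slc7a11, the cystine importer, measured 24.5, 24.8 and 22.4 CPM in intervene 4 to 6 and 18.8, 21.2 and 11.97 in model 4 to 6. The groups did not overlap, model 6 being lowest, and the log2 difference of 0.46 ± 0.19 had an adjusted p of 0.156. Nqo1 measured 8.45, 8.99 and 9.65 CPM against 7.51, 7.94 and 6.09, at 0.33 ± 0.19 and an adjusted p of 0.303. Gclm measured 32.1, 32.9 and 34.2 CPM against 29.0, 28.9 and 28.0, a narrow gap with a log2 difference of 0.21 ± 0.10 and an adjusted p of 0.210. Gclc, the catalytic subunit, overlapped at 51.7, 64.4 and 61.7 CPM against 47.6, 44.1 and 54.5, with 0.28 ± 0.15 and an adjusted p of 0.254. Acsl4 was lower in 8 of 9 pairs, at 54.2, 46.6 and 41.9 CPM against 56.6, 60.3 and 53.0, a log2 difference of -0.25 ± 0.10 with an adjusted p of 0.160. Gpx4, Aifm2 and Srxn1 had log2 differences of -0.04, 0.05 and -0.11. The median of the 10 genes was 0.24, against 0.00 for all genes.

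Intervene against control, within libraries 4 to 6, held the most calls: Nfe2l2, Txnrd1, Nqo1 and Gclm rose and Acsl4 fell, by edgeR. This comparison shares its intervene libraries with the one above, so the values are set side by side and are no second measurement. Here too the share of all genes without overlap was not counted. Nfe2l2 was 29.4 ± 3.20 CPM against 17.5 ± 2.95 in control (SD, n = 3), 1.67-fold, with every intervene library above every control library. Its log2 difference was 0.74 ± 0.11, with an adjusted p of 0.000372. Txnrd1 measured 45.5, 48.6 and 44.2 CPM in control, under all of the intervene libraries, and rose 1.35-fold with a log2 difference of 0.43 ± 0.08 and an adjusted p of 0.00144. Nqo1 measured 6.35, 5.50 and 5.05 CPM in control and 8.45, 8.99 and 9.65 in intervene, without overlap. It rose 1.60-fold, by 0.68 ± 0.19 on the log2 scale with an adjusted p of 0.0143. Gclm measured 23.6, 26.5 and 28.4 CPM in control, each under the 32.1, 32.9 and 34.2 of intervene. It rose 1.26-fold, by 0.34 ± 0.10 with an adjusted p of 0.0170.

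Acsl4 was the member called lower. Model 4 to 6 also lay under control 4 to 6, at a log2 difference of -0.38 that was not called. Intervene 4 to 6 averaged 47.6 ± 6.21 CPM against 73.6 ± 5.34 in control 4 to 6 (SD, n = 3), 0.647 times the control level. No library of one group reached the other, and the log2 difference was -0.63 ± 0.10 with an adjusted p of 0.000633. In the same libraries the glutathione peroxidase Gpx4 measured 487, 440.1 and 592 CPM in intervene and 417, 389.9 and 503 in control, overlapping, with a log2 difference of 0.21 ± 0.14 and an adjusted p of 0.270. Slc7a11 was at 0.16 ± 0.19, Aifm2 at 0.35 ± 0.21 and Gclc at 0.32 ± 0.15, with adjusted p of 0.571, 0.236 and 0.120. Srxn1 lay on the other side of 0 from the remaining NRF2 targets, at 123, 95.6 and 113 CPM against 121, 139 and 118, a log2 difference of -0.19 ± 0.11 with an adjusted p of 0.208.

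In this comparison 4 of 10 members were called higher and 1 lower, where 25.9% of all genes were called, 14.7% higher and 11.2% lower. With library totals in place of TMM, 2136 of all genes were called higher and 2449 lower in place of 2713 and 2063, and Gclm was no longer called (adjusted p 0.0751). The Gclm call was also lost without control 4 (adjusted p 0.0894) or intervene 6 (0.0522), and that of Nqo1 without control 5 (0.0537) or control 6 (0.0503). The median log2 difference of the 10 genes was 0.33, against 0.00 for all genes, and the median absolute difference of all genes was 0.32.

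**Figure D3:**
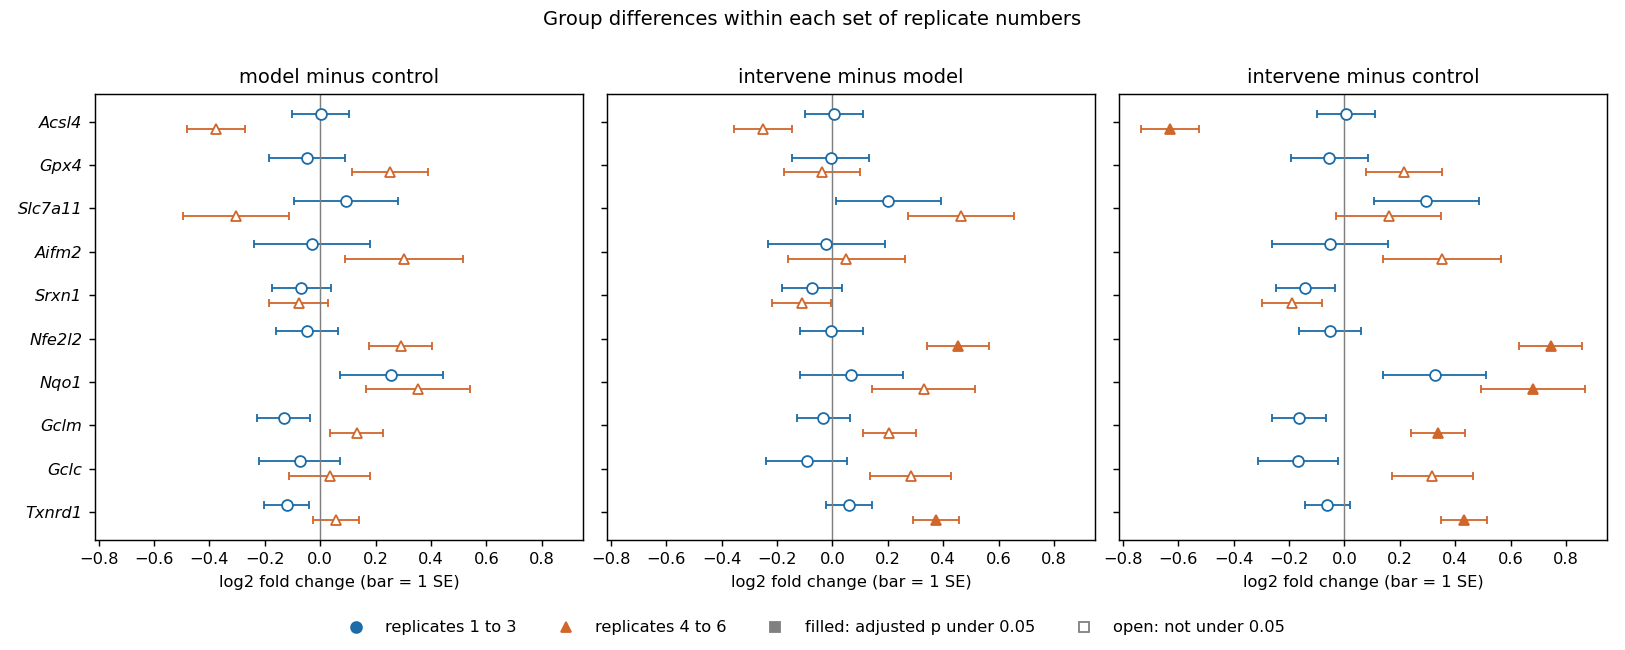
Log2 fold change of each gene between groups, fitted within replicates 1 to 3 (circles) and 4 to 6 (triangles), with bars of 1 SE and filled points for an edgeR adjusted p under 0.05. The 7 filled points are all triangles, 2 in intervene against model and 5 in intervene against control, among them Nfe2l2 at 0.74 and Acsl4 at -0.63.

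The sets were compared directly by an interaction term, since a call in one set and none in the other does not show that they differ. For intervene against control, 4 members differed between the sets by edgeR, 3 higher and 1 lower, where 17.9% of all genes were called, 9.54% higher and 8.37% lower. The log2 difference between intervene and control was greater in libraries 4 to 6 than in 1 to 3 by 0.80 ± 0.16 for Nfe2l2 (adjusted p 0.00391), 0.49 ± 0.12 for Txnrd1 (0.00900) and 0.50 ± 0.14 for Gclm (0.0190). For Acsl4 the change of the difference was -0.64 ± 0.15 (0.00869). The call for Gclm was lost without control 1 (adjusted p 0.0541) or control 4 (0.0552), with library totals (0.0521) and without the count filter (0.0502). That for Txnrd1 was lost with library totals (0.0712) and on the log2(FPKM + 0.1) and log2(FPKM + 1) scales (0.0766 and 0.0793). For intervene against model 0 of 10 members differed between the sets, against 0.352% of all genes (0.276% higher and 0.0759% lower), with Nfe2l2 at 0.46 ± 0.16 (adjusted p 0.162) and Txnrd1 at 0.31 ± 0.12 (0.179). The rise of these 2 genes in libraries 4 to 6 was therefore not shown to differ from libraries 1 to 3 in that comparison. For model against control 0 members and 0% of genes differed, with 2 members and 2079 genes at an unadjusted p under 0.05. Without adjustment intervene against model gave 2 members and 3145 genes, and DESeq2 and the other tests called 0 members in both.

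The same genes also differed between the sets inside a group, control libraries included. In control, Nfe2l2 was 23.9 ± 1.12 CPM in libraries 1 to 3 and 17.5 ± 2.95 in 4 to 6 (SD, n = 3), a log2 difference of -0.45 ± 0.11 with an adjusted p of 0.00553. Txnrd1 was likewise lower in libraries 4 to 6, at 46.1 ± 2.22 against 55.3 ± 1.77 CPM (adjusted p 0.0179), and Nqo1 at 5.63 ± 0.659 against 8.17 ± 1.84 CPM (0.0326). Acsl4 was higher in control 4 to 6, at 73.6 ± 5.34 against 59.1 ± 4.95 CPM (adjusted p 0.0236). That is 1 member higher and 3 lower of 10, where 38.2% of all genes were called, 18.6% higher and 19.6% lower. The Nfe2l2 call held with any 1 control library left out. With library totals Acsl4 and Txnrd1 were no longer called (adjusted p 0.0965 and 0.053), and Gpx4, with a log2 difference of -0.33 and an adjusted p of 0.0689 by TMM, was called lower (0.0234). The call of Acsl4 was lost without control 1, 2, 4 or 5 (adjusted p from 0.0711 to 0.0908), that of Txnrd1 without control 2, 4 or 6 (0.0573 to 0.0622) and that of Nqo1 without control 2, 5 or 6 (0.0911 to 0.194). The Nfe2l2 level of model 1 to 3, control 1 to 3 and intervene 1 to 3 lay between 21.7 and 24.7 CPM, so control 4 to 6 stood under it and intervene 4 to 6 above it. Between the same control libraries 9 of 12 thalamic neuron and 9 of 10 oligodendrocyte markers were lower in 4 to 6. So were 8 of 8 ependyma and 4 of 12 reactive astrocyte markers, and 6 of 10 cortical and hippocampal markers were higher. Of 10 homeostatic astrocyte markers 4 were lower and 1 was higher. Choroid plexus sums ran from 69.5 to 764 CPM in control 1 to 3 and from 3.91 to 7.24 in control 4 to 6. The part of these markers was not tested. Oligodendrocyte sums there were 15617 to 18740.0 CPM in libraries 1 to 3 against 7080.4 to 7868 in 4 to 6.

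In model 1 member was called between the sets, where 18.7% of all genes were called, 8.91% higher and 9.78% lower. Slc7a11 was 17.3 ± 4.78 CPM in libraries 4 to 6 and 25.9 ± 1.21 in 1 to 3, at -0.58 ± 0.19 with an adjusted p of 0.0446. It was lost without any 1 of model 1, 2, 3, 4 or 6 (adjusted p from 0.0751 to 0.18), and without model 6, the lowest library at 11.97 CPM, the log2 difference was -0.37. In intervene 3 members were higher in libraries 4 to 6 and 0 lower by edgeR, with 5 at an unadjusted p under 0.05, where 14.9% of all genes were called, 7.76% higher and 7.16% lower. Gclc was 59.3 ± 6.70 CPM against 37.1 ± 3.90, without overlap, at 0.67 ± 0.15 with an adjusted p of 0.00802. Gclm was 33.1 ± 1.08 against 25.8 ± 0.339 CPM (adjusted p 0.0217) and Nfe2l2 29.4 ± 3.20 against 23.0 ± 1.39 CPM (0.0464). Gclm and Nfe2l2 were each lost without any 1 of intervene 1, 3, 5 or 6, at adjusted p from 0.0582 to 0.0851 and from 0.119 to 0.181. With library totals 797 of all genes were called higher and 1594 lower here, in place of 1431 and 1321, and of the 3 members Gclc was still called. Acsl4 had a log2 difference of -0.32 ± 0.10 and an adjusted p of 0.0503. It was called lower by DESeq2 (adjusted p 0.0375), by edgeR with DESeq2 size factors (0.0483) and without intervene 4 (0.0159). Between the model sets 9 of 10 oligodendrocyte, 7 of 12 thalamic neuron and 8 of 10 choroid plexus markers were lower in 4 to 6. So were 6 of 12 reactive astrocyte and 5 of 5 erythroid markers, and 2 of 10 cortical and hippocampal markers were higher. Of 10 homeostatic astrocyte markers 3 were lower and 2 were higher there. Between the intervene sets 7 of 10 endothelium and 5 of 10 oligodendrocyte markers were lower and 3 of 10 homeostatic astrocyte markers were higher. Endothelium sums were 214 to 250.03 CPM in intervene 1 to 3 and 125 to 145 in 4 to 6. The part of these markers was not tested.

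Markers of cell types and regions moved between the same libraries (plot of summed marker levels). In bulk tissue fewer cells of a type and less RNA per cell cannot be told apart. For intervene against model in libraries 4 to 6, 10 of 12 reactive astrocyte markers and 7 of 12 thalamic neuron markers were called higher and 0 lower, with reactive astrocyte sums of 619 to 912 CPM in intervene, 241 to 327 in model and 199 to 258 in control. Homeostatic astrocyte markers were higher in 4 of 10, oligodendrocyte markers in 3 of 10 and erythroid markers in 2 of 5. Of all genes 3.66% were called higher and 2.05% lower in this comparison, and 14.7% and 11.2% in intervene against control. For intervene against control 8 of 12 reactive astrocyte, 10 of 12 thalamic neuron, 8 of 10 oligodendrocyte, 9 of 10 choroid plexus, 8 of 8 ependyma, 4 of 5 erythroid and 5 of 10 homeostatic astrocyte markers were higher, with 1 homeostatic astrocyte and 1 cortical and hippocampal marker lower. Oligodendrocyte sums were 14230 to 15779 CPM in intervene 4 to 6, 8542 to 12034 in model and 7080.4 to 7868 in control. Homeostatic astrocyte sums were 3097 to 3597 CPM, 2980.4 to 3352 and 3145 to 3293, and erythroid sums 269 to 411, 142 to 185 and 116 to 159. Choroid plexus sums were 137 to 4113 CPM in intervene 4 to 6, 64.5 to 117 in model and 3.91 to 7.24 in control, and ependyma sums 91.3 to 159, 34.8 to 53.4 and 10.8 to 20.7. The part of these shifts in the differences of Nfe2l2, Txnrd1, Nqo1, Gclm and Acsl4 was not tested.

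Microglia and endothelium markers moved less in these comparisons. Of 10 microglia markers 0 were called in intervene against model and 1 lower in intervene against control, with sums of 273 to 293 CPM in intervene 4 to 6, 281 to 304 in model and 293 to 348 in control. Of 10 endothelium markers 0 were called in either. Infiltrating monocyte and neutrophil markers summed to 10.3 to 13.3 CPM in intervene 4 to 6 and to 3.91 to 6.06 in model, with Camp at 0 in all 3 libraries of both and 1 of 6 tested markers called higher. Control 4 to 6 lay at 4.55 to 8.88 CPM. Their part was not tested.

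**Figure D4:**
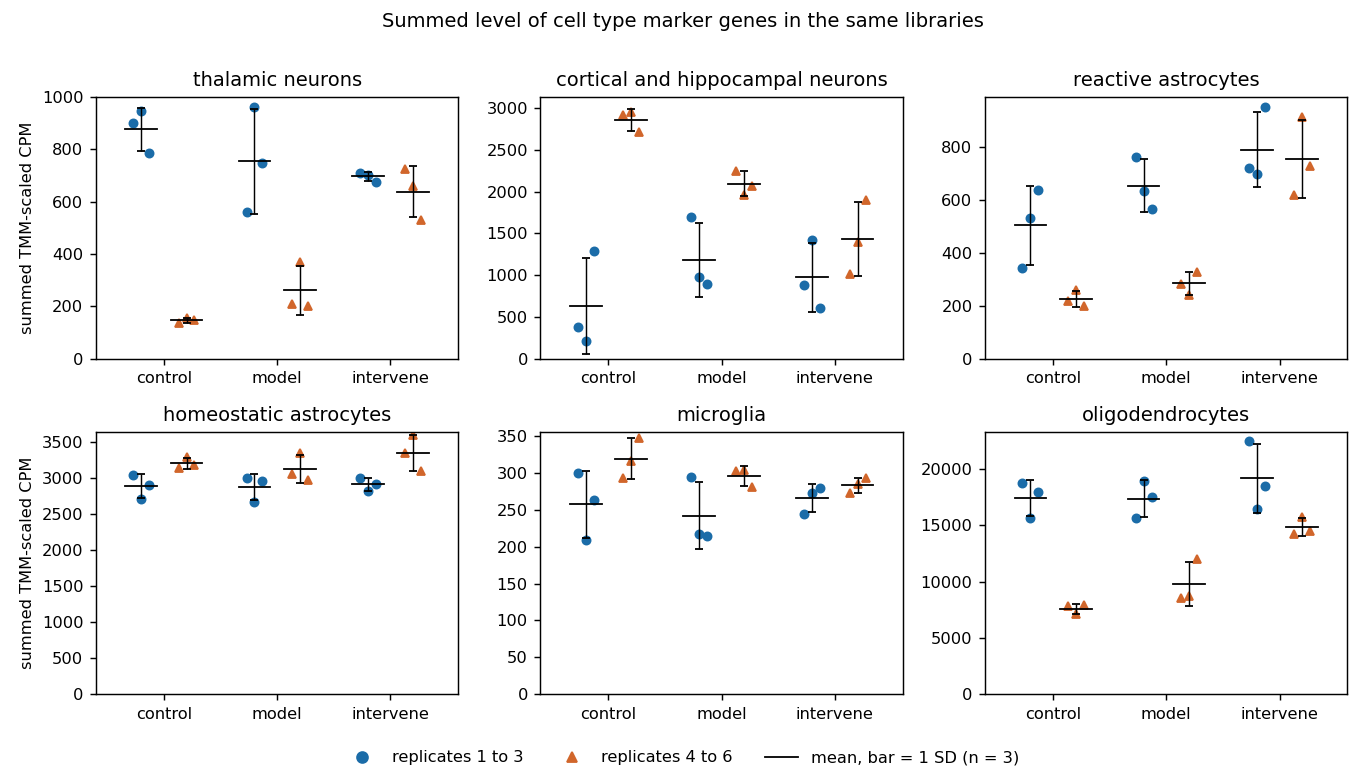
Summed TMM-scaled CPM of marker genes for 6 cell types in every library, by group, with circles for replicates 1 to 3 and triangles for replicates 4 to 6; lines are means of 3 libraries and bars 1 SD. Thalamic neuron and reactive astrocyte sums of the triangles are on average lowest in control and highest in intervene, while microglia sums stay between 209.8 and 348 CPM.

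Further genes of the pathways were read from lists that share a few members with each other. In the comparisons over all 18 libraries, within libraries 1 to 3, and for model against control in libraries 4 to 6, 0 genes of any of the 5 lists were called by edgeR, as for all genes.

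Among 23 other NRF2 target genes, 4 were called higher and 0 lower for intervene against model in libraries 4 to 6, with a list median of 0.27 on the log2 scale, against 3.66% and 2.05% of all genes. They were Hmox1, which degrades haem (log2 difference 1.81 ± 0.32, adjusted p 0.00884), Cat, the catalase that removes hydrogen peroxide (0.59), Gstm1, a glutathione transferase (0.50), and Fth1, the ferritin heavy chain that stores iron (0.54). For intervene against control 12 were higher and 1 lower, with a median of 0.40, against 14.7% and 11.2% of all genes. Hmox1 was 2.85 ± 0.34 higher on the log2 scale, Gstm1 1.02, Mgst1, a microsomal glutathione transferase, 1.41, and G6pdx, the first enzyme of the pentose phosphate pathway, 0.71. The transporter Abcc4 fell by 0.42 on the log2 scale. In control alone 9 of these 23 genes were lower and 3 higher in libraries 4 to 6 than in 1 to 3, with a median of -0.21, against 19.6% and 18.6% of all genes. The interaction for intervene against control called 7 higher and 1 lower, against 9.54% and 8.37% of all genes.

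Of 14 regulators and partners of NRF2 few passed the test. Maff, a small MAF partner of NRF2, was the 1 called for intervene against model in libraries 4 to 6, at 1.19 ± 0.28 (adjusted p 0.0234), and the list median was -0.03. Against control Maff rose by 1.34 ± 0.28 and 2 genes fell, Nfe2l1 (NRF1), a relative of Nfe2l2, by 0.44 and the small MAF gene Mafg by 0.34 on the log2 scale. Of the 24 other ferroptosis genes 23 matched the table by symbol and were tested, and 3 were higher for intervene against model. These were the heat shock gene Hspb1 (1.41 ± 0.30), the oxidoreductase Por, which can feed lipid peroxidation (0.45), and Trp53 (0.47). The same 3 were higher against control, at 1.54, 0.49 and 0.72, and the transferrin receptor Tfrc (-0.62), which imports iron, and Cisd1 (-0.30), an iron-sulphur protein of mitochondria, were lower. The list medians were 0.08 and 0.05. Of all genes 3.66% were higher in intervene against model, and 14.7% higher and 11.2% lower in intervene against control.

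Of 28 glutathione, thioredoxin and selenoprotein genes 0 were called for intervene against model by edgeR, against 3.66% of all genes higher and 2.05% lower. Gpx3, a secreted glutathione peroxidase, stood at 1.84 ± 0.54 (adjusted p 0.0621). At an unadjusted p under 0.05 there were 4 of the 28, against 23.3% of all genes, and the list median was -0.03. Against control 5 were higher and 0 lower, among them Gpx3 (3.44 ± 0.58), the selenium carrier Selenop (0.67), the superoxide dismutase Sod1 (0.66) and Gss, the second enzyme of glutathione synthesis (0.47), with a list median of 0.09 and 14.7% of all genes higher. Of 12 genes of the integrated stress response, whose factor ATF4 is also known to drive Slc7a11, Atf3 was the 1 called higher for intervene against model. It stood at 2.27 ± 0.48 (adjusted p 0.0152), where 3.66% of all genes were higher. Against control Atf3 (3.62 ± 0.52) and the serine synthesis genes Phgdh (0.58) and Psat1 (0.32) were higher and 0 lower, again beside 14.7% of all genes higher.

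Among themselves the members followed each other in part. Correlations of log2 CPM were taken over the 9 libraries of each set, which mix the 3 groups and share their tissue makeup, and are descriptions. Gclc and Nfe2l2 had r of 0.79 in libraries 1 to 3 and 0.64 in 4 to 6, Gclm and Nfe2l2 0.57 and 0.96, and Gclm and Gclc 0.57 and 0.65. Acsl4 ran against Gclm at -0.72 and -0.89, and against Gpx4 at -0.65 and -0.64. Other pairs changed sides between the sets. Srxn1 had r of 0.62 and -0.51 with Gclm and -0.58 and 0.56 with Acsl4. With Nfe2l2, Nqo1 had r of -0.11 and 0.80 and Slc7a11 -0.72 and 0.32.

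The tested gene of most like pattern to each member was found by the lower of the 2 correlations. For Nfe2l2 it was Wipi1 (lower r 0.949 over 9 libraries), followed by Hspb11 and Rhoa. For Gpx4 the closest were Atp5o (0.940) and Surf1 (0.939), for Acsl4 Rap2a (0.910), and for Nqo1 Gas6 (0.911). Gclc was closest to Cnot3 (0.898), Gclm to Isca2 (0.894), Aifm2 to Fam189a2 (0.871) and Txnrd1 to Aldh4a1 (0.859). Slc7a11 was closest to Slc39a6 (0.845), and Srxn1 had the weakest best match, Ap5z1 at 0.767.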

How the data were processed

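The authors deposited raw counts and FPKM for 50559 genes in 18 libraries of polyA RNA; the submitters' processing notes name HISAT2, featureCounts and the build GRCm39. For tool versions and strandedness, not given in the sources used here, nothing was assumed. FPKM as deposited equal the counts divided by a gene length and the library's total in 18117 of 18117 genes counted in every library, at a relative tolerance of 1e-06, so they add no independent measurement. Counts of any 2 libraries of a group differed by a chi-square of at least 11.4 per degree of freedom, so none repeated another.

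The robust quasi-likelihood F test of edgeR 4.0.16 (R 4.3.3) was run on the counts, with TMM scaling after filterByExpr, which left 18452 genes, and Benjamini-Hochberg adjustment over those genes. The threshold was 0.05 with no fold minimum. One fit had a mean per group, and a second a mean per group and set of replicate numbers, both on all 18 libraries. The SE is the size of the log2 fold change divided by the square root of F. CPM are TMM-scaled. DESeq2 1.42.0 and limma 3.58.1 were among the alternatives. The members, lists and sets were chosen with earlier results of these data known. Of each list, up to 4 called genes of lowest p in each direction, or the 2 of lowest p, could be named; like patterns were sought among genes of at least 5 CPM.

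On simulated data with 200 of 18452 genes changed, intervene against model recovered 58% of changes of 1.5-fold over all libraries and 20% within libraries 4 to 6. The simulated libraries were drawn from the overall mean of each gene, without the difference between libraries 1 to 3 and 4 to 6. The 58% is therefore no measure of what the test over all real libraries recovers. Nor is the 20% one for libraries 4 to 6. There 1053 real genes were called, against 200 changed in the simulation, and the adjustment depends on such numbers. Deviations of model and control libraries of one number correlated across genes at 0.185 to 0.631, over 0.1 in 6 of 6 pairs. They were taken from the mean of all 6 libraries of a group, so the division between 1 to 3 and 4 to 6 enters them. The library that a library resembled most bore its own number in 4 of 12 cases. A pairing by number was therefore not shown, and the labels give none. Promoter windows are from RefSeq.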

Additional observations from a re-analysis of the deposited data

Results flagged for a closer look

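Control 2 stood apart from the other 5 control libraries for the cystine importer Slc7a11, at 31.6 CPM, and for Aifm2, at 11.4 CPM. Intervene 2 stood apart for Nqo1, at 12.8 CPM. In each case the gap to the next library took a share of the range of the 6 libraries above Dixon's critical value. There were 30 such checks, 10 genes in 3 groups, and chance flags about 1 in 20. The 3 genes are the ones with the lowest FPKM of the 10. In CPM, over 18 libraries, Slc7a11 averaged 23.7, above Nfe2l2 at 23.1.

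The difference between intervene and control differed between libraries 4 to 6 and 1 to 3 by the interaction term in edgeR for 4 of 10 genes. Of all genes 17.9% were called in this way, 9.54% higher and 8.37% lower. The difference was higher in libraries 4 to 6 by 0.80 on the log2 scale for Nfe2l2, 0.49 for Txnrd1 and 0.50 for Gclm, and stood at -0.64 for Acsl4, with adjusted p of 0.00391, 0.00900, 0.0190 and 0.00869. With library totals Gclm and Txnrd1 were no longer called (adjusted p 0.0521 and 0.0712). Thalamic neuron, oligodendrocyte and astrocyte markers differ between the same libraries, and their part was not tested.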

How the results depend on the processing

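With 3 libraries per arm in the simulated data, the test within libraries 4 to 6 recovered 8% of changes of 1.3-fold and 64% of changes of 2-fold. With each library left out in turn, and in the other alternatives that were run (10 over all libraries, 9 within a set, 8 for an interaction), 0 members were called over all 18 libraries, within libraries 1 to 3, for model against control in libraries 4 to 6, and in the interactions of model against control and intervene against model.

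For intervene against model in libraries 4 to 6 the 2 calls became 0 with library totals, 0 with log2(FPKM + 1), 0 with log2(FPKM + 0.1), 1 without the count filter, and 0 to 2 with 1 library left out. With a replicate block 1 remained, since Nfe2l2 had an adjusted p of 0.0517 at the same log2 difference of 0.45; deviations correlated over 0.1 in 5 of 6 pairs there, and the library that a library resembled most bore its own number in 3 of 12 cases. The block changed no other count of members, and model against control stayed at 0. It could not be fitted for sets within a group, which differ in number by construction. For intervene against control in libraries 4 to 6 the 5 calls became 3 with log2(FPKM + 1), and its interaction went from 4 to 2 with library totals. Between sets, control went from 4 to 2 with log2(FPKM + 1), where Acsl4, Nqo1 and Txnrd1 were lost and Gpx4 was gained (adjusted p 0.0248), and to 1 to 5 with 1 library left out. With log2(FPKM + 0.1) Acsl4 and Txnrd1 were lost there and Gpx4 gained (0.0227). Model went from 1 to 0 with library totals, without the filter and with both FPKM scales, and to 0 to 1 with 1 left out. Intervene went from 3 to 1 under those 4 settings and to 1 to 4 with 1 left out. Both FPKM scales divide by library totals, so they are not separate from that setting. The cause of these losses was not tested. Acsl4, Txnrd1 and Nfe2l2 passed in 15 of 15 alternatives for intervene against control in libraries 4 to 6, Nqo1 in 12 and Gclm in 9. In its interaction Acsl4 and Nfe2l2 passed in 20 of 20.

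Of 131 pairs of a member and a comparison that were not called, 36 had the other sign under at least 1 alternative, the largest at 0.179 on the log2 scale, and 8 of 2261 alternative values passed the threshold. Of 289 alternative values of the 19 called pairs, 215 passed in the same direction. Over all genes, the 1053 calls of intervene against model in libraries 4 to 6 became 158 to 946 with 1 library left out (158 without model 4) and 797 to 1785 otherwise, and the 65 of its interaction 2 to 578 and 16 to 646. With 1 library left out, the 3448 calls between sets in model became 1274 to 3857, the 2752 in intervene 996 to 3264, and the 4776 of intervene against control in libraries 4 to 6 became 2879 at the lowest. From TMM to library totals the median of all genes moved by -0.0864 at the most.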
